A study of Mus musculus with 6 samples.

Results

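The 9 genes described here encode enzymes of the tricarboxylic acid (TCA) cycle, namely *Cs*, *Idh3a*, *Idh3b*, *Idh3g*, *Ogdh*, *Dlst*, *Suclg1*, *Fh1* and *Mdh2*. They were taken by symbol from the 26216 gene symbols of the deposited values, all 9 were found, and all 9 were among the 13108 symbols tested. The cells were LT/ST-HSCs, hematopoietic stem cells sorted as Lin-, Annexin-V-, sca1+, c-kit+, CD150+ and CD48- from the bone marrow of mixed chimeras 6 weeks after transplantation. Lethally irradiated Ly5.1/Ly5.2 recipients had received LSKs (Lin-, sca1+, c-kit+ progenitors) of Ltbr-/- (CD45.2) donors together with LSKs of Ly5.1 (CD45.1) donors, so that both genotypes had passed through the same irradiated hosts. The Ltbr-/- replicates came from donors of 13, 10 and 10 to 13 weeks, and each Ly5.1 replicate from donors of 7 to 13 weeks. Material of 6 chimeras was pooled to 3 samples per genotype, and the germline loss of *Ltbr* cannot be told apart from the other differences between the donor strains, among them the *Ptprc* allele and its flanking chromosome 1 segment.

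The TCA cycle runs in the mitochondrial matrix. It joins acetyl-CoA to oxaloacetate and releases as much carbon as was added, as carbon dioxide, in a pair of oxidative decarboxylations. It passes the electrons to the respiratory chain as NADH and FADH2. Its intermediates also leave the cycle for biosynthesis, citrate for fatty acids and oxaloacetate for aspartate, and are refilled by pyruvate carboxylase and from glutamine. Resting HSCs are known for their reliance on glycolysis and for low mitochondrial activity, and mitochondrial oxidation is known to increase when they leave quiescence.

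The data are 1 signal per gene and sample, which was taken, from its values and the methods of the study, as 2 to the power of a regularized log value. Such values already include size factors and a shrinkage of weak genes. No read counts per gene come with the values, and precision rests on 3 samples per group. The study gives its depth as an average number of reads per sample with a spread, not for each sample. Signals are not given per transcript length, so those of different genes are not comparable as amounts. The sums of marker signals and the ranking of genes by mean signal mix genes of different length. *Ltbr* itself had signals between 23.1 and 26.4 in the Ltbr-/- samples and between 522 and 564 in the Ly5.1 samples, so that all 6 samples matched their labels. HSC markers were present in all samples, with a summed signal of 10 markers between 17672 and 18315 in Ltbr-/- and between 18828 and 19404 in Ly5.1 cells, 1 of the 10 being higher and 2 lower. Transcripts of other lineages were present too and moved with genotype. The summed signal of 10 granulocyte markers lay between 39958 and 40451 in Ltbr-/- and between 51950 and 56864 in Ly5.1 cells, and 9 of the 10 were lower with an adjusted p under 0.05. Of 8 mast cell and basophil markers, whose sum was 7511 to 8081 against 4120 to 4706, 2 were higher and 1 lower, while most of the sum was *Cma1* (mean 5470.2 against 2195), *Prss34* was lower (527 against 696), and *Mcpt4* and *Tpsb2* had signals under 20 throughout. Of 8 erythroid markers (sum 4823 to 5184 against 3411 to 3756) 2 were higher and 0 lower, of 8 B cell and plasma cell markers (1455 to 1584 against 2315 to 2477) 1 was higher and 2 lower, with *Ms4a1* and *Ebf1* among those under 20. Of 7 monocyte and macrophage markers (3873 to 4200 against 3565 to 3802) 2 were higher and 1 lower, of 6 megakaryocyte markers (13849 to 14640 against 11732 to 13039) *Itga2b* was higher (11640.2 against 9380.3, most of the sum) and *Pf4* lower (324 against 409), and all 7 T cell markers stayed under 20. The part of these transcripts in the results below was not tested. In bulk RNA, a change in the number of such cells and a change in RNA per cell cannot be told apart.

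Of the 9 enzymes, 4 were higher in Ltbr-/- LT/ST-HSCs with a Benjamini-Hochberg adjusted p under 0.05 in limma, and 0 were lower. These were *Idh3b*, *Mdh2*, *Fh1* and *Idh3g*. Among all tested genes 10.6% were higher and 4.18% lower by the same test, 14.8% in all, and among the 6554 symbols with the highest mean signal, where all 9 enzymes lie, 16.4% were higher and 6.53% lower. At an unadjusted p under 0.05, 5 of the 9 were higher and 2 lower. No enzyme passed the fold of 1.5 that the study also required, a threshold passed together with the test by 2.72% of all tested genes upward and 0.061% downward, 2.78% in all, and 0 did so with an unadjusted p. The log2 fold changes ran from −0.23 to 0.37 with a median of 0.16, against a median of −0.01 over all tested genes. In 7 of 9 enzymes the 2 groups did not overlap, the Ltbr-/- values being above in 5 and below in 2. Over all tested genes 17% did not overlap with Ltbr-/- above and 13.5% with Ltbr-/- below, together 30.4%. The shares were 22.9% and 17.2%, together 40.1%, among the 6554 genes with the highest signal. The balance of directions depended on the scaling. After quantile normalization 3 enzymes were higher and 2 lower (all genes, 1246 and 914), with each sample scaled to the same summed signal 2 were higher and 2 lower (805 and 5883), and after a correction for transcript length and GC content 3 were higher and 1 lower (902 and 753), against 1388 and 548 of all genes without these steps. With the same sum per sample, the median gene was shifted by −0.15 (log2). Without Ltbr-/- replicate 3, only *Idh3b* and *Mdh2* of the 9 passed the test.

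**Figure D1:**
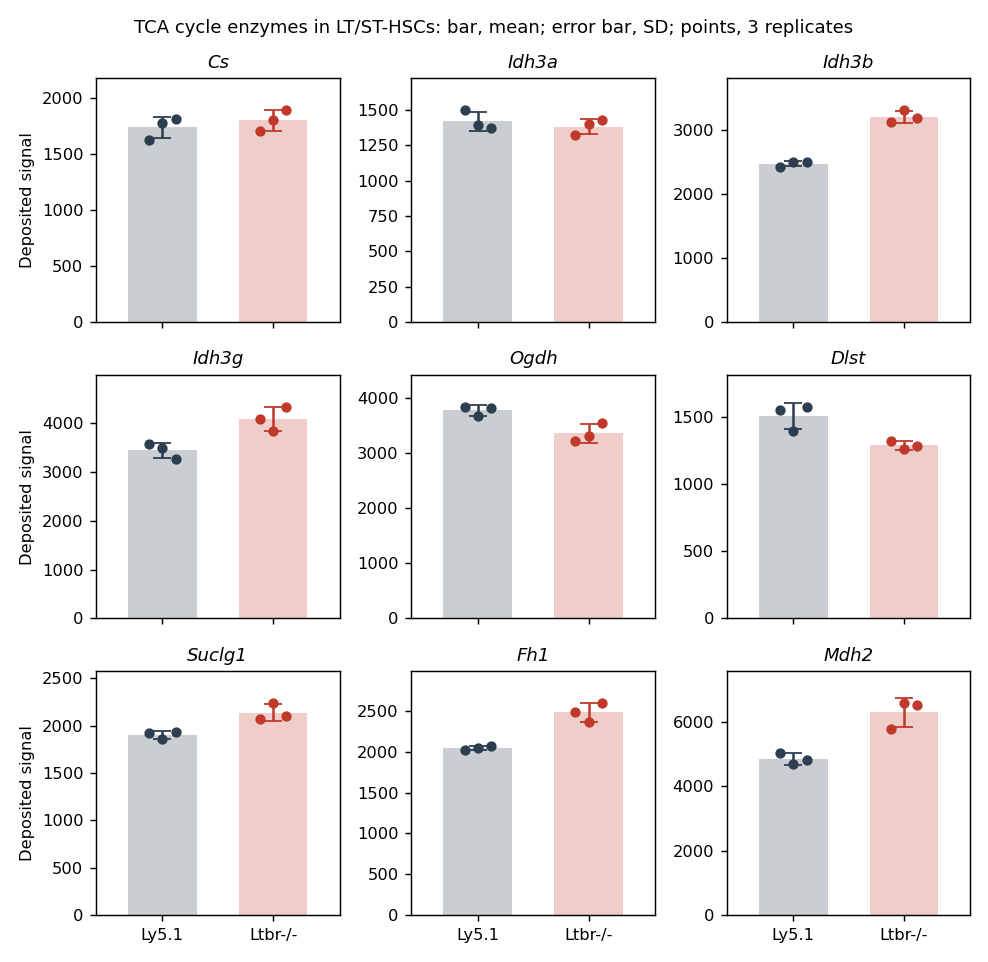
Deposited signal of the 9 TCA cycle enzymes (y axis, no unit, from 0) in Ly5.1 (dark) and Ltbr-/- (red) LT/ST-HSCs; bars are means, error bars SD and points the 3 replicates. The groups are apart for all but *Cs* and *Idh3a*, with the Ltbr-/- values lower in *Ogdh* and *Dlst* and higher in the other 5.

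The starts of the 4 genes that rose are shown because all 4 passed the test in the same direction. Each sequence runs 5′ to 3′ from 145 bases before to 5 bases after the RefSeq transcription start (GRCm38.p6, the build also named in the submitters' processing notes as GRCm38), with motif matches in capitals.
*Idh3b* (chr2:130284447-130284596, minus strand): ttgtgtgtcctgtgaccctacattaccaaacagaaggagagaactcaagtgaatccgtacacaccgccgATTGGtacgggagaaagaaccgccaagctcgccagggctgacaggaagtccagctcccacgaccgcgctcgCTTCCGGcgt
*Idh3g* (chrX:73786893-73787042, minus strand): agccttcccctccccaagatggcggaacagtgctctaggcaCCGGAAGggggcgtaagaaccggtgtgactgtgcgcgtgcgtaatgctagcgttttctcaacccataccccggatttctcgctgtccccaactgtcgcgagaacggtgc
*Fh1* (chr1:175625631-175625780, minus strand): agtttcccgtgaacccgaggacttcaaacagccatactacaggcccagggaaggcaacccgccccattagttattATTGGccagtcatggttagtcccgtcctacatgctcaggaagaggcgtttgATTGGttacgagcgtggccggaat
*Mdh2* (chr5:135778504-135778653, plus strand): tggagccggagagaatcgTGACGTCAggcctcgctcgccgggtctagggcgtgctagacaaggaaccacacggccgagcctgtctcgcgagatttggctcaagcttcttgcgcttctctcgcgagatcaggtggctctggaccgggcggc
The motifs were the ETS core CCGGAAG, the cyclic AMP response element TGACGTCA, the CCAAT box core CCAAT and the NRF1 motif, searched on both strands of the 300-base windows (250 bases before to 50 after the start) that were at hand for 8 of the 9 enzymes; *Idh3a* was not among them. The ETS core stood at −5 to 2 in *Idh3b*, read on the opposite strand, and at −104 to −98 in *Idh3g*, and also at 2 to 8 in *Dlst*, which did not rise. It occurred in 8.86% of 32851 windows. The cyclic AMP response element stood at −127 to −120 in *Mdh2* and in 3 of the 6 start windows of *Ogdh*, against 1.79% of all windows. The 3 matches in *Ogdh* are the same genomic site, seen from windows that overlap. *Fh1* held a pair of CCAAT boxes, *Idh3b* 1, and *Cs* and *Ogdh* held them too (37.4% of windows), while the NRF1 motif (4.60%) was found in none of the 8. No motif was thus shared by the 4 genes that rose and missing from the others.

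*Cs* (chr10:128337727-128362482) encodes citrate synthase, which condenses acetyl-CoA with oxaloacetate at the entry of the cycle. Its signals were 1706, 1800.4 and 1889 in Ltbr-/- and 1624, 1771 and 1809 in Ly5.1 samples. The ranges overlapped, with the lowest value in a Ly5.1 and the highest in an Ltbr-/- sample. The means were 1798 ± 91.5 and 1735 ± 97.3 (SD, n = 3 each), and the log2 fold change was 0.05 (95% interval −0.12 to 0.22, limma adjusted p = 0.740). Of the 76-base windows of its longest protein-coding transcript, 0.737% also occur in *Csl*, a citrate synthase-like gene, and none of the windows of the other 8 enzymes occur in another gene. The gene body of *Cs* overlaps that of *Gm23182* on the same strand, and a part of this gene in the signal was not tested.

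NAD-dependent isocitrate dehydrogenase carries out the first oxidative decarboxylation. It is built of catalytic alpha subunits, encoded by *Idh3a*, and of beta and gamma subunits, encoded by *Idh3b* and *Idh3g*, the gamma subunit being the regulatory one. Of the 3 genes, *Idh3b* and *Idh3g* passed the test and *Idh3a* did not. *Idh3a* (chr9:54586511-54604662) had signals of 1322, 1398 and 1426 in Ltbr-/- and of 1499, 1391 and 1376 in Ly5.1 samples, so that the groups overlapped (log2 fold change −0.04, 95% interval −0.21 to 0.13, limma adjusted p = 0.805). *Idh3b* (chr2:130279309-130284451) had signals of 3117, 3303 and 3185 in Ltbr-/- and of 2421, 2495 and 2494 in Ly5.1 samples. All 3 Ltbr-/- values were thus above the highest Ly5.1 value, and the spread within each group was small beside the gap. Its mean rose from 2470.0 ± 42.8 to 3202 ± 94.4 (SD, n = 3 each), 1.30-fold (95% interval 1.16 to 1.44), a log2 difference of 0.37 (SE 0.08, limma adjusted p = 0.000416). The gene body of *Idh3b* overlaps that of *Nop56* on the opposite strand. The library kit keeps strand, but whether the counting used it is not given in the sources used here. *Idh3g* (chrX:73778963-73786897) had signals of 4071, 3842 and 4330.0 in Ltbr-/- and of 3566, 3477 and 3266 in Ly5.1 samples, again without overlap. Its mean rose from 3436 ± 154 to 4081 ± 244 (SD, n = 3 each), 1.19-fold (95% interval 1.07 to 1.32), a log2 difference of 0.25 (SE 0.08, limma adjusted p = 0.0223). This call was lost without Ltbr-/- replicate 1, without Ltbr-/- replicate 3 or without Ly5.1 replicate 3, with log2 fold changes of 0.25, 0.20 and 0.21.

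The ratio of the subunits was followed per sample, which removes any scaling factor of the sample but not an effect of transcript length. The log2 ratio of *Idh3a* to *Idh3b* was −1.24, −1.24 and −1.16 in Ltbr-/- and −0.69, −0.84 and −0.86 in Ly5.1 samples. It was 0.42 lower in Ltbr-/- cells, so that the ratio was 0.750 times that of Ly5.1 cells, and the groups did not overlap. The log2 ratio of *Idh3a* to *Idh3g* was −1.56 ± 0.09 in Ltbr-/- and −1.27 ± 0.04 in Ly5.1 cells (SD, n = 3 each), also without overlap, a difference of −0.29. After the correction for transcript length and GC content this difference was −0.17 and the groups overlapped (exact two-sided permutation p = 0.2), while that of *Idh3a* to *Idh3b* was −0.33, still without overlap (p = 0.1 in the exact permutation test). The ratio of *Idh3b* to *Idh3g* overlapped between the groups, with a difference of 0.13. In the exact two-sided permutation test the p-values were 0.1, 0.1 and 0.2 (0.2, 0.2 and 0.267 after adjustment over 4 ratios), and 0.1 is the smallest that 3 against 3 samples allow.

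**Figure D2:**
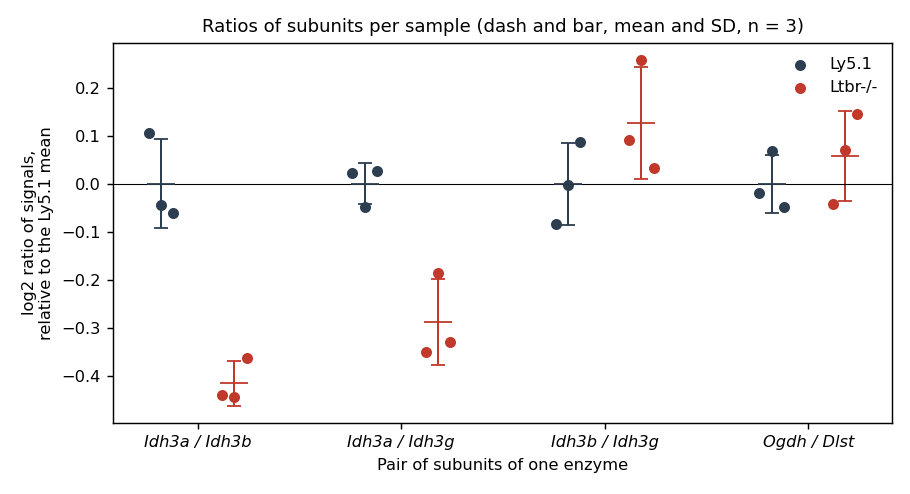
log2 ratio of the signals of 4 pairs of subunits (x axis) per sample, relative to the mean of the Ly5.1 samples (y axis); dark, Ly5.1; red, Ltbr-/-; dashes and bars are mean and SD of 3 replicates. The *Idh3a* to *Idh3b* and *Idh3a* to *Idh3g* ratios are lower in every Ltbr-/- sample, whereas the other 2 ratios overlap.

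The second oxidative decarboxylation is that of the 2-oxoglutarate dehydrogenase complex, with *Ogdh* for its decarboxylating E1 and *Dlst* for its succinyltransferase E2. Both had lower signals in every Ltbr-/- sample, and neither passed the test. *Ogdh* (chr11:6291597-6359094) had signals of 3221, 3310.5 and 3554 in Ltbr-/- and of 3846, 3670.5 and 3821 in Ly5.1 samples. The highest Ltbr-/- value was close below the lowest Ly5.1 value, and the log2 fold change was −0.17 (95% interval −0.32 to −0.02, limma adjusted p = 0.134). *Dlst* (chr12:85110822-85134091) had signals of 1324, 1261 and 1285 in Ltbr-/- and of 1558, 1399 and 1579 in Ly5.1 samples. Here too the groups did not overlap, with means of 1290 ± 32.1 and 1512 ± 98.3 (SD, n = 3 each). The log2 fold change of −0.23 (95% interval −0.40 to −0.05) came with an adjusted p of 0.0677 from limma. Without Ly5.1 replicate 2, the lowest of its group, *Dlst* passed the test at −0.28 (adjusted p = 0.0389). Both genes also passed it after quantile normalization, *Ogdh* at −0.27 (adjusted p = 0.00767) and *Dlst* at −0.26 (adjusted p = 0.0303). *Dlst* further passed it among the upper 25% of symbols (limma adjusted p = 0.0371). The *Ogdh* to *Dlst* ratio differed between the genotypes by 0.06 on the log2 scale, with overlapping groups (exact two-sided permutation p = 0.4).

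*Suclg1* (chr6:73248505-73276907) encodes the alpha subunit of succinyl-CoA synthetase, which forms GTP or ATP from succinyl-CoA. Its signals were 2076, 2238 and 2099 in Ltbr-/- and 1925, 1858 and 1935 in Ly5.1 samples. The groups did not overlap, but the log2 fold change of 0.16 (95% interval 0.002 to 0.33) did not pass the test (limma adjusted p = 0.179). The gene lies 52 Mb from *Ltbr* on the same chromosome.

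The 2 enzymes that close the cycle both rose. *Fh1* (chr1:175601378-175625635) encodes fumarase, which hydrates fumarate to malate. It had signals of 2483, 2369 and 2594 in Ltbr-/- and of 2016, 2049.6 and 2069 in Ly5.1 samples. The Ly5.1 values were tightly grouped, and each Ltbr-/- value was above them. The mean rose from 2045 ± 26.7 to 2482 ± 113 (SD, n = 3 each), 1.21-fold (95% interval 1.09 to 1.36), a log2 difference of 0.28 (SE 0.08, limma adjusted p = 0.0130). Without Ltbr-/- replicate 3, the highest of its group, the log2 fold change was 0.25 and the adjusted p 0.0872 in limma. *Fh1* lies 37.4 Mb from *Ptprc* on chromosome 1, and its gene body overlaps that of *Kmo* on the opposite strand. *Mdh2* (chr5:135778649-135790386) encodes mitochondrial malate dehydrogenase, which returns malate to oxaloacetate and is also a part of the malate-aspartate shuttle. Its signals were 5793, 6593 and 6528 in Ltbr-/- and 5052, 4694 and 4836 in Ly5.1 samples. Ltbr-/- replicate 1 was below the other two of its group, and it was still above all Ly5.1 values. The mean rose from 4861 ± 180.5 to 6305 ± 444 (SD, n = 3 each), 1.30-fold (95% interval 1.17 to 1.43), a log2 difference of 0.37 (SE 0.07, limma adjusted p = 0.000195). *Idh3b* and *Mdh2* kept their call under all 18 alternative settings, with adjusted p-values up to 0.0152 and 0.0305. Their size depended on the scaling, the log2 fold change of *Idh3b* being 0.22 with each sample scaled to the same summed signal, and that of *Mdh2* 0.22 with this scaling, 0.21 after quantile normalization and 0.25 after the correction for transcript length and GC content.

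**Figure D3:**
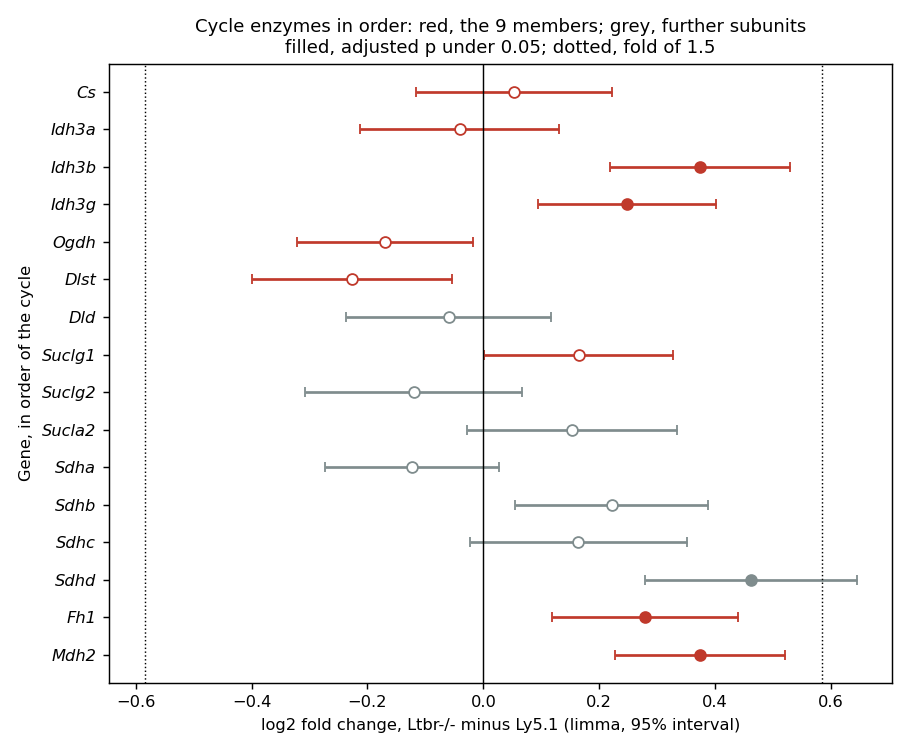
log2 fold change (x axis, Ltbr-/- minus Ly5.1, with 95% intervals from limma) of cycle genes, from citrate synthase at the top to malate dehydrogenase at the bottom; red, the 9 enzymes described; grey, further subunits; filled symbols have an adjusted p under 0.05. *Idh3b*, *Idh3g*, *Sdhd*, *Fh1* and *Mdh2* are filled and to the right, and *Dlst* is farthest to the left at −0.23.

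A further list held 8 enzymes and subunits of the cycle, among them *Dld*, *Suclg2*, *Sucla2* and the succinate dehydrogenase genes *Sdha* to *Sdhd*. Of these 8, only *Sdhd*, a membrane anchor of succinate dehydrogenase, passed the test, and 0 were lower (0 also at an unadjusted p under 0.05 in limma). Its signals were 1056, 1143 and 1000.2 in Ltbr-/- and 764, 727 and 832 in Ly5.1 samples, and the log2 fold change was 0.46 (limma adjusted p = 0.000223). Of its partners, *Sdha*, the flavoprotein, was at −0.12 on the log2 scale (limma adjusted p = 0.288) and *Sdhb*, the iron-sulfur subunit, at 0.22 (adjusted p = 0.0646). *Dld*, the dihydrolipoamide dehydrogenase shared by several complexes, was closest to no change among the 8, at −0.06 (limma adjusted p = 0.715).

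Pyruvate reaches the cycle through the mitochondrial pyruvate carrier and the pyruvate dehydrogenase complex. Of 11 tested genes of this entry 2 rose and 0 were lower (0 also unadjusted). *Mpc2*, a subunit of the carrier, was at 0.30 on the log2 scale (limma adjusted p = 0.0447) and *Pdhx*, the protein that binds dihydrolipoamide dehydrogenase in the complex, at 0.31 (limma adjusted p = 0.0338). Both calls were weak, being held in 8 and 10 of 17 alternative settings. *Pdhb*, the E1 beta subunit, was at −0.04 (adjusted p = 0.848). *Pdk4* was below the filter on low signals.

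Among 7 tested genes for links between cycle intermediates and pyruvate, phosphoenolpyruvate, glutamine or glutamate, 3 rose and 0 were lower (0 also unadjusted). *Pcx*, pyruvate carboxylase, had signals of 762, 782 and 688 in Ltbr-/- and of 589, 427 and 486 in Ly5.1 samples. Its log2 difference was 0.58 (SE 0.10, limma adjusted p = 3.80e-05), a larger value than that of any of the 9 enzymes and just under a fold of 1.5. *Me2*, the mitochondrial NAD-dependent malic enzyme, was at 0.32 (adjusted p = 0.00493) and *Gls2*, a glutaminase with signals of only 53.2 to 81.0, at 0.34 (adjusted p = 0.000808). *Pck2*, mitochondrial phosphoenolpyruvate carboxykinase, was at 0.03 (adjusted p = 0.846).

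Among 10 cytosolic or NADP-dependent counterparts and carriers 2 rose and 0 were lower (1 unadjusted). *Slc25a1*, which exports citrate from mitochondria, had signals of 2822, 3069 and 2677 in Ltbr-/- and of 1664, 1465 and 1937 in Ly5.1 samples, the largest value among the 46 tested pathway genes, a log2 difference of 0.77 (limma adjusted p = 1.74e-08). *Mdh1*, the cytosolic malate dehydrogenase, rose with its mitochondrial counterpart, at 0.22 (adjusted p = 0.0319), a call held in 12 of 18 alternative settings. The NADP-dependent isocitrate dehydrogenase *Idh2* was at −0.01 (adjusted p = 0.968). None of 10 tested genes for assembly, lipoylation or related subunits passed the test in limma, 2 being higher at an unadjusted p under 0.05, and *Lipt2*, a lipoyl transferase, was closest to no change (log2 fold change 0.001, adjusted p = 0.993). Over the 46 tested genes of these lists together, 8 rose, 0 were lower, and the median log2 fold change was 0.07. The 8 are 17.4% of these genes, beside 16.4% of the 6554 genes with the highest signal. Not all of the 46 are among those 6554, so this share is not a matched background. *Mpc2*, *Pdhx* and *Gls2*, which rose, lie below them, as do others that did not rise. Of all tested genes 10.6% rose and 4.18% were lower.

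The cycle enzymes were set beside the pathways on either side of it. Of 19 glycolysis genes 12 rose and 0 were lower (3 unadjusted), the median being 0.55 (log2), and 9 passed a fold of 1.5, led by *Aldoa* at 1.23, *Pgk1* at 1.11 and *Ldha* at 0.90. Of 76 tested nuclear genes of the respiratory chain and ATP synthase, chosen by symbol, 56 rose and 0 were lower (0 also unadjusted), with a median of 0.39, and 13 passed a fold of 1.5, led by *Cox8a* at 1.02, *Ndufa6* at 0.92 and *Cox4i1* at 0.87. Cytosolic ribosomal protein genes had a median of 0.80, with 78 of 81 higher and 1 lower, although reads of such genes can be shared with their many pseudogene copies, with *Fau* at 1.07 and *Rpl13* at 1.02 among the largest values. The 9 cycle enzymes, with 4 higher and a median of 0.16, thus had smaller differences in these samples, although no test of the lists against each other was made. After the correction for transcript length and GC content the median of the respiratory chain was 0.22, and *Idh3b* at 0.27, *Fh1* at 0.27 and *Mdh2* at 0.25 lay above it. These were the highest of the 9, and the other enzymes lay below this median, among them *Cs* at 0.05 and *Idh3a* at −0.05.

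**Figure D4:**
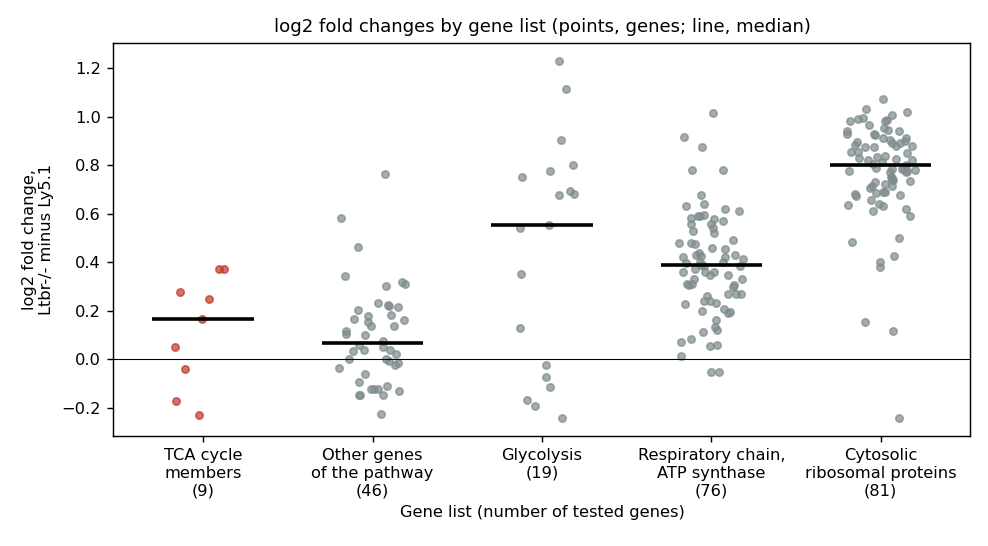
log2 fold change (y axis, Ltbr-/- minus Ly5.1) of single genes (points) by list (x axis, with the number of tested genes); lines are medians. The 9 cycle enzymes (red) lie between −0.23 and 0.37, and the medians of glycolysis, the respiratory chain and ribosomal proteins at 0.55, 0.39 and 0.80; after the length and GC correction 3 of the 9 lay above the respiratory chain median.

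Transcript length moved with the log2 fold change. The longest protein-coding transcripts (GENCODE M21) of *Idh3g*, *Mdh2*, *Suclg1* and *Idh3b* have 1331, 1456, 1519 and 1616 bases and those of *Idh3a*, *Fh1*, *Dlst*, *Cs* and *Ogdh* 2580.0, 2636, 2764, 2926 and 4127 bases. The 4 short ones had log2 fold changes from 0.16 to 0.37. Of the 5 longer ones only *Fh1* rose, and the lowest values were those of *Dlst* and *Ogdh*. Across the 9 enzymes Spearman's rho of length and log2 fold change was −0.63, and across 11015 tested genes with a transcript it was −0.41, as a description over genes, which share the same 6 libraries. In the shortest 25% of these genes 24.6% were higher and 2.14% lower, and in the longest 25% 2.36% were higher and 7.84% lower. After a loess correction for length and GC content *Idh3b*, *Fh1* and *Mdh2* still rose, *Idh3g* did not pass the test (log2 fold change 0.11, limma adjusted p = 0.299), and *Dlst* was lower (−0.24, adjusted p = 0.0355). The cause of the relation was not tested.

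**Figure D5:**
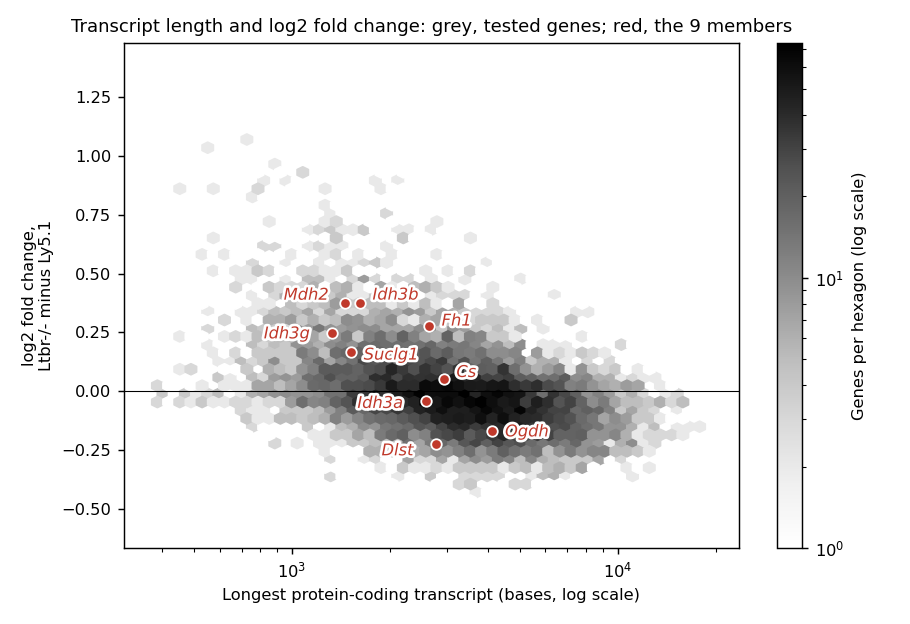
Length of the longest protein-coding transcript (x axis, bases, log scale) against log2 fold change (y axis, Ltbr-/- minus Ly5.1) for 11000 tested genes (grey hexagons, darker for more genes; 15 genes lie outside the axes) and the 9 cycle enzymes (red, named). Short transcripts lie higher than long ones, and *Fh1* and *Dlst*, of similar length, lie apart at 0.28 and −0.23.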

How the data were processed

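RNA of 3 Ltbr-/- and 3 Ly5.1 LT/ST-HSC samples was sequenced by the authors in single reads of 76 bases from a stranded mRNA kit, assembled with SeqMan NGen v.16 and quantified with ArrayStar v.16. DESeq2 and GRCm38 are named in the submitters' processing notes as used by the authors. The deposited signal was taken, from its values, as 2 to the power of the regularized log named in the methods, so its log2 was tested without a pseudocount or further scaling. Of 26216 symbols (26595 values per sample, for a repeated symbol the one with the highest mean), the upper 50% by mean were fitted with limma 3.58.1 (R 4.3.3, eBayes with trend), with Benjamini-Hochberg adjustment over 13108 genes. "Rose" and "passed the test" mean an adjusted p under 0.05; the study's fold of at least 1.5 was counted in addition. On simulated data, 97% of changes of 1 and 80% of changes of 0.5 (log2) were recovered and 3.80% of calls were genes simulated without a change. The simulation had independent noise and as many changes up as down, and no change as small as those of the 9 enzymes (at most 0.37). These shares therefore do not carry over to the 9 enzymes. Replicates are pools of chimeras, so the p-values do not measure the spread between single animals. In limma the variance of each gene was moderated toward that of genes of similar signal. The p-values and intervals thus do not rest on the spread of that gene's own values alone. The genes named are the 9 enzymes, pathway genes past the test, the least changed of each list, the 3 largest changes of each comparison list, the 5 genes with the most similar profile and *Ltbr*; *Sdha*, *Sdhb*, *Pdk4* and the single marker genes were named after their values were seen, and some genes that this rule takes in are not reported here. The members and lists were chosen with earlier results of these data known. Promoter windows came from RefSeq (GRCm38.p6) and were at hand for 8 of 9 enzymes. Same-numbered samples of both genotypes were checked for pairing, and alternatives covered the replicate block, filters, normalization, pseudocounts, variance models, repeated symbols and leaving out each sample; the correction for length and GC content was added after the data were seen.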

Additional observations from a re-analysis of the deposited data

How the results depend on the processing

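Of 162 values of the 9 enzymes under 18 alternatives each, 146 kept their direction and their side of the threshold, 8 lost the call, 7 gained it and 1 turned its direction. Some alternatives could hardly move these enzymes, so the 146 does not measure robustness. Of the 9, 0 had a repeated symbol, pseudocounts were small beside their signals, and centring on the median shifted the median gene by 0.0004 (log2). Scaling each sample to the same summed signal, which by its construction lowers the Ltbr-/- values relative to Ly5.1 (−0.15 at the median), put *Cs* at −0.10, *Idh3g* at 0.10 and *Fh1* at 0.13 (not called), *Ogdh* at −0.32 and *Dlst* at −0.38 (called), and gave 2 higher and 2 lower enzymes, 4 higher and 15 lower pathway genes, and 805 higher and 5883 lower genes in all, with 204 and 27 past a fold of 1.5. Quantile normalization put *Idh3g* at 0.15 (not called), *Ogdh* at −0.27 and *Dlst* at −0.26 (called), turned the difference of the *Ogdh* to *Dlst* ratio to −0.0065, and gave 2 lower enzymes, 2 lower pathway genes and 914 lower genes, 28 of them past the fold. The stricter filter (upper 25%) tested fewer genes, called *Dlst* lower at −0.23 and so 1 enzyme, and left 4 lower genes past the fold. Without a filter 355 genes were lower. The length and GC correction put the difference of the *Idh3a* to *Idh3g* ratio at −0.17, *Idh3g* at 0.11 and *Dlst* at −0.24, and gave 1 lower enzyme, 2 pathway genes past a fold of 1.5, 902 higher genes and 169 past the fold. The medians of glycolysis, the respiratory chain and ribosomal proteins were 0.40, 0.24 and 0.65 when scaled to the same sum and 0.45, 0.22 and 0.61 after the length and GC correction; those of glycolysis and ribosomal proteins were 0.46 and 0.55 after quantile normalization. Apart from the shared-sum scaling, the cause of these moves was not tested.

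With 1 sample removed at a time, 2 to 4 enzymes were higher and 0 to 1 lower, 5 to 9 pathway genes were higher and 0 to 1 lower, 1 to 2 of them past a fold of 1.5, and 249 to 599 genes in all were lower, the lowest count being that without Ltbr-/- replicate 3; the lower genes were also under 548 by more than 1.5 times without Ltbr-/- replicate 2 (302), Ly5.1 replicate 1 (343) and Ly5.1 replicate 2 (365). The log2 fold change of *Idh3g* stayed between 0.20 and 0.29, that of *Dlst* between −0.28 and −0.19 and that of *Fh1* between 0.25 and 0.31. Pathway genes fell to 5 higher without Ltbr-/- replicate 3 and without Ly5.1 replicate 1. With the replicate number as a block, 4 enzymes were higher and 0 lower, and 1372 genes were higher and 564 lower, so the block changed no call among the 9. The deviations of same-numbered samples correlated between −0.005 and 0.09 and those of other pairs between −0.07 and 0.05. With only 3 same-numbered pairs, this cannot decide whether the numbers pair the samples. Depth is given by the study as an average only, so it could not be compared between single samples.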

Other observations

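The mean of the 9 cycle enzymes, each centred on its own mean log2 signal, was compared by Pearson's r over the 6 samples with every other tested gene. Among the 5 genes with the most similar profile were *Rrp9*, *Gm6109*, *D8Ertd82e* and *Gsn*, with r from 0.993 to 0.997. *Rrp9*, a component of the U3 small nucleolar ribonucleoprotein, had means of 1529 ± 104 in Ltbr-/- and 1235 ± 57.9 in Ly5.1 samples (SD, n = 3 each), and *Gsn*, the actin-severing protein gelsolin, 2671 ± 288 and 1698 ± 110. The r rests on 6 libraries that fall into 2 groups and is a description of likeness only.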
